A study of Rattus norvegicus with 15 samples.

Results

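The secreted Wnt antagonists are proteins that cells release to dampen Wnt signals outside the cell. The 10 genes followed here, Sostdc1, Dkk1, Dkk2, Dkk3, Dkk4, Frzb, Sfrp1, Sfrp2, Sfrp4 and Wif1, were chosen by their family and because Frzb, Sfrp2 and Sostdc1 had already been seen to move in opposite directions in these data. Of the 10 genes, 8 had a row among the 14185 genes of the count table. Dkk1 had no row, and Wif1 could not be matched to a row and is only named. The differences of Frzb, Sfrp2 and Sostdc1 between stages chose the set, so they are given as a description without a test. The other 5 genes with a row, Dkk2, Dkk3, Dkk4, Sfrp1 and Sfrp4, were tested between stages, and all 8 were tested between left and right teeth.

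RNA sequencing was performed on 15 single first molar germs of wild type DA/HanRj rat embryos, 5 at each of 3 stages. E15 stands for teeth labelled E15.5, the bud stage, E17 for teeth labelled E17.5, the cap stage, and E18 for embryonic day 18. No group carried a mutation or a treatment, and 9 teeth were left and 6 right. The E18 labels name the lower first molar and the others only the first molar. All labels name the same library kit, but those of E18 carry another protocol text, which mentions storage in RNAlater. The methods of the study name RNAlater for the germs it sequenced as well, among them the E15 and E17 rat teeth. Each stage was also collected under a title code of its own, so the stage and any difference in preparation that follows the text or the codes cannot be told apart. E17 replicates 1 and 2 were both teeth of 1 embryo.

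Wnt ligands bind Frizzled receptors together with the co-receptors Lrp5 and Lrp6, and stabilise beta-catenin, which acts with Tcf and Lef factors in the nucleus. Antagonists act at either side of this complex. The Dickkopf proteins Dkk1, Dkk2 and Dkk4 and Sostdc1 bind the co-receptors, whereas Frzb, the other Sfrp proteins and Wif1 bind the ligands. In the tooth, Wnt signalling is needed for growth past the bud stage, and loss of Sostdc1, which also binds BMPs, alters cusps and tooth number in the mouse.

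Promoter sequences are shown for Frzb and Sfrp2, the pair of members named by the choice whose counts were lower at later stages, so that their start regions can be compared. All 10 genes had a RefSeq gene entry, but a promoter window (build GRCr8) was available for only 4 of them. Each window runs from 250 bases before to 50 bases after the gene start, and capitals mark CG pairs, the bases at which DNA methylation mostly falls. The Frzb window is chr3:85772047-85772346 on the minus strand and the Sfrp2 window is chr2:171387286-171387585 on the plus strand.
Frzb: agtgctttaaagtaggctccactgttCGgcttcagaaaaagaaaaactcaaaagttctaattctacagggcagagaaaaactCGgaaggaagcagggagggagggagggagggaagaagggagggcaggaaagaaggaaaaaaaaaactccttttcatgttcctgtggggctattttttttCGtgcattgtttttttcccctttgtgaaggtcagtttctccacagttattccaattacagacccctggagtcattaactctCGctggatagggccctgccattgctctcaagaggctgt
Sfrp2: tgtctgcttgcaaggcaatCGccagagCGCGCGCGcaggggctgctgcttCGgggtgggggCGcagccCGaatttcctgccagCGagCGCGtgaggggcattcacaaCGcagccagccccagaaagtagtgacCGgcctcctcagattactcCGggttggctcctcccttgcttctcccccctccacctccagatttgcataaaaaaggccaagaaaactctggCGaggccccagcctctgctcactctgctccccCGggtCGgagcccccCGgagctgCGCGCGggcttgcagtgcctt
The windows differed in composition although both genes had lower counts at later stages. The Frzb window was 45.3% G and C with 4 CG pairs, and 30.7% of the 33469 promoters had fewer. The Sfrp2 window was 65.0% G and C with 21 CG pairs, and 77.4% of promoters had fewer. Neither held the Tcf/Lef core CTTTGA on either strand (read as TCAAAG on the other), which occurred in 16.1% of all promoters, and neither held the TATA element TATAAA, which occurred in 14.2%. The longer core CTTTGAT overlaps the first motif, was also not in these windows and occurred in 3.63% of promoters. The other windows available were those of Dkk1 and Wif1, which have no counts here. The Dkk1 window held 2 matches of the Tcf/Lef core and 1 of the TATA element, and the Wif1 window held neither.

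Library totals ranged from 10993502 to 27571541 counts. Levels are given as normalized counts, which are counts divided by a size factor for each library. They are not corrected for gene length, so levels of different genes are not ranked. In bulk tissue, fewer cells of a type and less RNA per cell cannot be told apart. Some libraries stood apart. In E15 replicate 3 the 10 most abundant genes took 7.47% of counts, against 4.46% to 5.15% in the other E15 teeth. E18 replicate 3 had a mean correlation of 0.918 across genes with the other E18 teeth, which had 0.965 to 0.968, and it was the lowest E18 tooth for 5 of the 8 antagonists. Its summed markers of glia and nerve were 620.3 normalized counts, against 1763 to 2038 in the other E18 teeth. Most of this sum was Ptprz1 (446). Ptprz1 and Tac1 (34.6) were the lowest of the E18 teeth, whereas Ret (139), the remaining marker with a row, was the highest. The part of these markers in its antagonist levels was not tested. Where leaving out one of these libraries changed a call of an antagonist, this is said beside the call.

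Sostdc1 had higher counts after the bud stage. At E15 the normalized counts of Sostdc1 were 1243, 1189, 3362, 1184 and 1456 in replicates 1 to 5. The E17 teeth had 4008, 3570, 4513, 5027 and 3824. Every E17 tooth lay above every E15 tooth, including E15 replicate 3, which held more than any other tooth of its stage. At E18 the counts of Sostdc1 were 3733, 5383, 2320, 5386 and 5299. The E18 teeth overlapped with both earlier stages, with replicates 2, 4 and 5 near each other and replicate 3 below every E17 tooth and below E15 replicate 3. The mean level was 1687 ± 943 at E15, 4189 ± 582 at E17 and 4424 ± 1371 at E18 (SD, n = 5 each). The log2 fold change of Sostdc1 was 1.32 ± 0.26 (SE) from E15 to E17 and 1.74 ± 0.10 without E15 replicate 3. From E15 to E18 it was 1.40 ± 0.33, and 1.97 without replicate 3 of both stages. Between E17 and E18 it was 0.08 ± 0.21, smaller than its error. E15 replicate 3 also had the highest sum of dental epithelium markers at E15 (4690 normalized counts) and the lowest sum of dental mesenchyme markers (95781), of which Col1a1 made up 49512. Single markers differed in this, since Lama3 of the epithelial list (618) lay below 3 of the other 4 E15 teeth and Pax9 of the mesenchymal list (3828) was the highest of its stage. By mean log2 level the mesenchymal markers of this tooth were at 12.29, as in E15 replicate 4. The part of these markers in its Sostdc1 level was not tested.

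Frzb, a secreted Frizzled-like protein that captures Wnt ligands, went the other way. The normalized counts of Frzb at E15 were 3421, 2978, 3633, 3242 and 3680. The E17 teeth held 1673, 1890, 2235, 2039 and 1875. At E18 they were 1286, 1444, 883, 1389 and 1147. The stages did not overlap in any of the 3 comparisons, and each stage lay wholly below the one before it. The mean level of Frzb was 3391 ± 290 at E15, 1942 ± 209 at E17 and 1230 ± 225 at E18 (SD, n = 5 each). The fitted level of Frzb was 1.73-fold lower at E17 than at E15, with a log2 fold change of -0.79 ± 0.08 (SE). Between E17 and E18 it was 1.58-fold lower (-0.66 ± 0.13), and from E15 to E18 2.74-fold lower (-1.45 ± 0.13). Leaving out replicate 3 of both E15 and E18 left the last value at -1.33.

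Sfrp2, a ligand-binding antagonist of the same family, was also lower at later stages, by less than Frzb from E15 to E17. The normalized counts of Sfrp2 at E15 were 9855, 9289, 10046, 10575 and 8864. The E17 values were 8928, 7120, 8635, 7035 and 8760. At E18 they were 6493, 5973, 5816, 5228 and 4497. E15 and E17 overlapped by 1 tooth of each stage, E17 replicate 1 and E15 replicate 5, whereas all E18 teeth lay below all earlier ones. The mean level of Sfrp2 was 9726 ± 666, 8096 ± 935 and 5601 ± 765 (SD, n = 5 each). Its log2 fold change was -0.26 ± 0.08 (SE) from E15 to E17, -0.53 ± 0.11 from E17 to E18 and -0.79 ± 0.11 from E15 to E18. For Frzb the step from E15 to E17 had the larger size, and for Sfrp2 the step from E17 to E18. The difference between these steps was not tested.

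**Figure D1:**
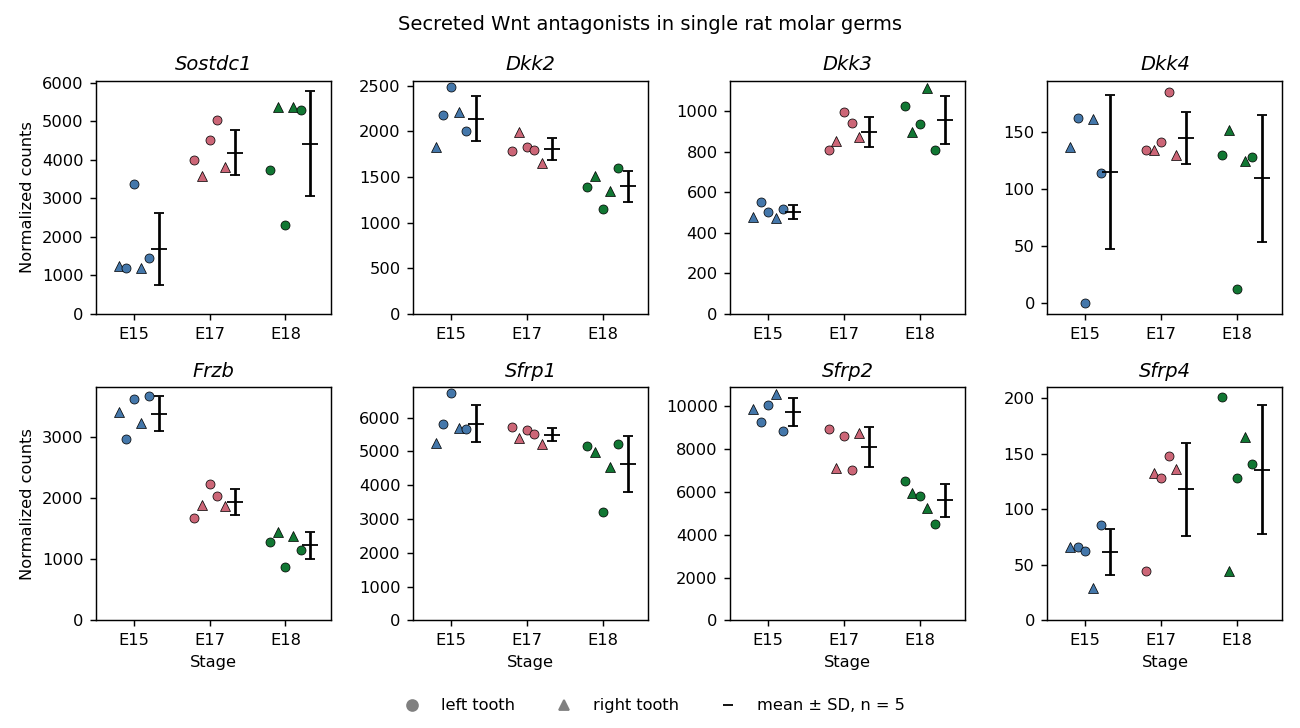
Normalized counts (vertical axis, linear) of 8 secreted Wnt antagonists in each tooth by stage; circles are left teeth, triangles right teeth, points run from replicate 1 to 5, and bars are the mean ± SD of 5 teeth. Frzb falls into 3 separate levels, Sostdc1 shows 1 high E15 tooth (3362), and Dkk4 is at 0 in 1 E15 tooth and 12.3 in 1 E18 tooth.

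The ratio of 2 genes within a library does not depend on library size. The ratio of Sostdc1 to Frzb counts, not corrected for gene length, was 0.363, 0.399, 0.925, 0.365 and 0.396 in the E15 teeth. At E17 it was 2.40, 1.89, 2.02, 2.47 and 2.04, and at E18 it was 2.90, 3.73, 2.63, 3.88 and 4.62. No stage overlapped with another, so that the 5 teeth of each stage lay above all teeth of the stage before, and only the E15 ratios were below 1. The mean ratio was 0.490 ± 0.244, 2.16 ± 0.253 and 3.55 ± 0.799 (SD, n = 5 each), and the E15 mean was 0.381 without E15 replicate 3. The ratio of Sostdc1 to Sfrp2 had means of 0.173 ± 0.0924, 0.525 ± 0.112 and 0.817 ± 0.323, and E18 replicate 3 (0.399) lay below all E17 teeth. The ratio of Frzb to Sfrp2 was 0.350 ± 0.0423 at E15, 0.243 ± 0.0415 at E17 and 0.222 ± 0.0472 at E18. All E17 teeth lay below all E15 teeth in this ratio, and E17 and E18 overlapped. These ratios use the genes by which the set was chosen and carry no test.

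**Figure D2:**
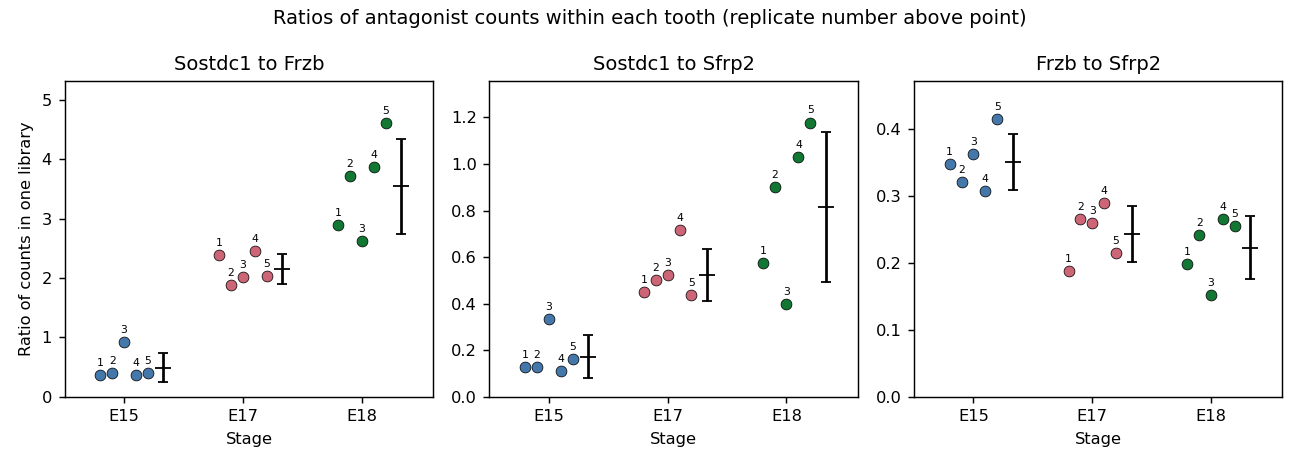
Ratio of the counts of 2 antagonists within each library (vertical axis, no unit, linear from 0) by stage; each point is a tooth with its replicate number above it, and bars are the mean ± SD of 5 teeth. The ratio of Sostdc1 to Frzb separates all stages, and E15 replicate 3 (0.925) stands above the other E15 teeth.

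The Dickkopf genes did not share a direction. Dkk3, a divergent member of the family whose effect on Wnt signalling varies with the cell type, had normalized counts of 477, 552, 500, 471 and 517 at E15. At E17 Dkk3 had 811, 854, 996, 942 and 873, and at E18 it had 1027, 899, 938, 1116 and 809. The E15 teeth lay below all later ones, and E17 and E18 overlapped. Dkk3 rose 1.79-fold from E15 to E17, with a log2 fold change of 0.84 ± 0.07 (SE) and an adjusted p of 8.03e-06 by edgeR's quasi-likelihood test with Benjamini-Hochberg adjustment. It rose 1.92-fold from E15 to E18 (0.94 ± 0.10, edgeR adjusted p = 8.2e-05). Between E17 and E18 the log2 fold change was 0.10 ± 0.10 with an edgeR adjusted p of 0.646. Dkk3 was the member whose teeth differed least within E15, with a coefficient of variation of 6.52%.

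Dkk2, which can block or weakly activate Wnt signalling through Lrp6 depending on the context, moved the opposite way. The normalized counts of Dkk2 were 1828, 2178, 2483, 2209 and 2001 at E15. At E17 they were 1782, 1995, 1823, 1791 and 1654, and at E18 they were 1391, 1507, 1145, 1346 and 1595. All E18 teeth lay below all teeth of both earlier stages, and E15 and E17 overlapped. Dkk2 fell 1.52-fold from E15 to E18 (log2 fold change -0.61 ± 0.11 SE, edgeR adjusted p = 0.00224). The steps within this interval did not pass the test. The log2 fold change was -0.23 ± 0.08 from E15 to E17 (edgeR adjusted p = 0.0626) and -0.37 ± 0.09 from E17 to E18 (edgeR adjusted p = 0.0602). The later step passed without E18 replicate 3 (-0.32, edgeR adjusted p = 0.0122) and the earlier one without E15 replicate 1 (-0.28, edgeR adjusted p = 0.0221) or without E17 replicate 2 (-0.27, edgeR adjusted p = 0.0497). By DESeq2 both steps passed (adjusted p = 0.0297 and 0.0103).

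Dkk4, an inhibitor expressed in the epithelium of skin appendages and itself a target of Wnt signalling, was near one level in most teeth and almost missing in 2. The normalized counts of Dkk4 were 137, 162, 0, 161 and 114 at E15. At E17 they were 134, 135, 141, 186 and 130, and at E18 they were 130, 152, 12.3, 125 and 129. The other teeth held between 114 and 186. The 0 in E15 replicate 3 allows up to 3 counts, or 3.52 normalized counts, and E18 replicate 3 had 11 counts. The stages overlapped in all comparisons and no change of Dkk4 passed the test. Its log2 fold change was 0.34 ± 0.53 from E15 to E17 (edgeR adjusted p = 0.714), -0.41 ± 0.44 from E17 to E18 (edgeR adjusted p = 0.66) and -0.07 ± 0.76 from E15 to E18 (edgeR adjusted p = 0.96). Without E15 replicate 3 the first value was 0.03 ± 0.15 (edgeR adjusted p = 0.92), and without E18 replicate 3 the second was -0.13 ± 0.14 (edgeR adjusted p = 0.662) and the last turned to 0.22 ± 0.60 (edgeR adjusted p = 0.818). E15 replicate 3 thus held the most Sostdc1 and the least Dkk4 of its stage, whereas E18 replicate 3 held the least of both. In E15 replicate 3, 3 of 8 enamel knot markers (Fgf3, Fgf4 and Fgf20) were at 0, but 1, 1 and 2 were at 0 in replicates 2, 4 and 5 too, and these 3 genes reached no more than 20.1 normalized counts in any E15 tooth. The summed enamel knot markers of E15 replicate 3 were the highest of its stage (919.7 normalized counts, against 761 to 879). Bmp2 (500) and Fgf9 (195) made up most of this sum and were each the highest of the stage, whereas Cdkn1a (76.3) was the lowest. By mean log2 level the markers of this tooth were at 4.15, within the 4.11 to 5.17 of the other E15 teeth. In E18 replicate 3 none of the 8 markers was at 0, and their sum (2624) lay within the range of the other E18 teeth (1910 to 2708). The part of these markers in the Dkk4 levels was not tested.

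Sfrp1, a ligand-binding antagonist, passed no stage comparison by edgeR with the teeth of the compared stages alone. The normalized counts of Sfrp1 were 5247, 5809, 6720, 5688 and 5669 at E15. At E17 they were 5730, 5397, 5626, 5528 and 5230, and at E18 they were 5176, 4996, 3219, 4531 and 5221. All E18 teeth lay below all E17 and E15 teeth, but the highest of them (5221) came close to the lowest E17 tooth (5230), and replicate 3 was far below the rest. The log2 fold change of Sfrp1 was -0.07 ± 0.07 (SE) from E15 to E17 (edgeR adjusted p = 0.488), -0.25 ± 0.12 from E17 to E18 (edgeR adjusted p = 0.336) and -0.32 ± 0.13 from E15 to E18 (edgeR adjusted p = 0.105). The last passed in one fit over all 15 teeth (-0.33, edgeR adjusted p = 0.037). Without E18 replicate 3 the step from E17 to E18 was -0.15 ± 0.05 (edgeR adjusted p = 0.136). Without replicate 3 of both stages, the value from E15 to E18 was -0.16.

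Sfrp4, another member of the family, varied more between teeth than the other 7 members at E17, with a coefficient of variation of 35.2%. The normalized counts of Sfrp4 were 66.1, 65.9, 62.3, 29.0 and 86.1 at E15. At E17 they were 44.8, 132, 128, 148 and 136, and at E18 they were 201, 44.1, 128, 165 and 141. In both later stages 4 of 5 teeth lay above all E15 teeth, and the fifth lay within the E15 range. The fitted rise of Sfrp4 from E15 to E18 was 2.22-fold (log2 fold change 1.15 ± 0.37 SE) and only just passed the test (edgeR adjusted p = 0.0485). This call was lost with another scaling (edgeR adjusted p = 0.0505) and without any single E15 replicate or E18 replicate 1, 4 or 5 (edgeR adjusted p between 0.0524 and 0.106). From E15 to E17 the log2 fold change was 0.94 ± 0.32 (edgeR adjusted p = 0.0568), which passed without E17 replicate 1 (1.15, edgeR adjusted p = 0.00735) or E15 replicate 5 (edgeR adjusted p = 0.0465). It also passed with both teeth of the 1 E17 embryo summed (1.02, edgeR adjusted p = 0.0232), with only genes of at least 10 counts in every library (edgeR adjusted p = 0.0491) and by DESeq2 (adjusted p = 0.0198). Between E17 and E18 it was 0.21 ± 0.38 (edgeR adjusted p = 0.779).

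Of the 5 members tested between stages, 1 was called from E15 to E17, and it was higher, where 18.3% of all 12627 genes tested were called (11.3% higher and 7.02% lower). At an unadjusted p under 0.05 this was 3 of 5, against 32% of all genes. DESeq2 called 3 of 5, Dkk3 and Sfrp4 higher and Dkk2 lower, and edgeR called 2 of 5 with the teeth of 1 embryo summed and 1 to 2 leaving out single replicates. The share of 18.3% is that of the main edgeR fit, with 2315 genes called. Over the alternatives run, the number of all genes called was 1514 to 2881. Between E17 and E18 edgeR called 0 of 5, with 1 at an unadjusted p under 0.05. DESeq2 called 1 of 5, and 636 of all 12718 genes. Among all 12718 genes, 2.54% were called by edgeR (1.91% higher and 0.629% lower) and 15.9% had an unadjusted p under 0.05. Over the whole interval from E15 to E18 edgeR called 3 of 5, 2 higher and 1 lower, where 21% of 12661 genes were called (14.2% higher and 6.73% lower). At an unadjusted p under 0.05 this was 4 of 5, against 33.7% of all genes. The median log2 fold change of the 5 members was 0.34, -0.25 and -0.07 in these comparisons, and that of all genes tested was -0.01, -0.02 and -0.02. The comparisons share the teeth of a stage and are not independent of each other.

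**Figure D3:**
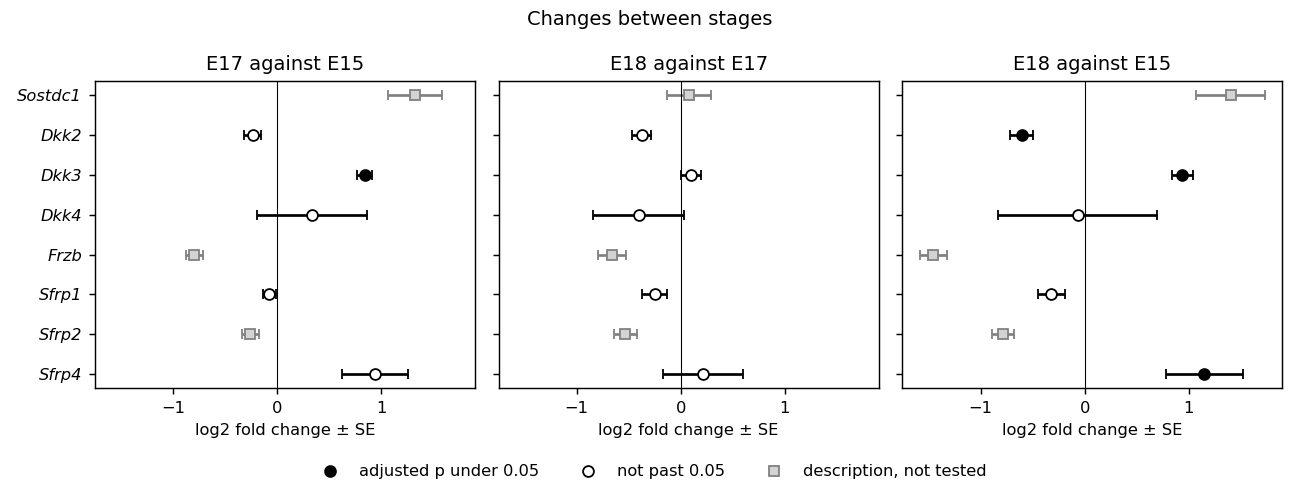
Fitted log2 fold change ± SE (horizontal axis) of 8 antagonists in 3 stage comparisons of 5 teeth each; filled circles passed an adjusted p of 0.05, open circles did not, and grey squares are the genes by which the set was chosen, shown without a test. Dkk3 lies right of 0 and Dkk2 left of 0 from E15 to E18, with the wide bars of Dkk4 crossing 0.

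Left and right teeth were compared with stage as a covariate, which addresses all 8 members, since the choice did not use the side. No member passed the test between sides by edgeR or DESeq2 (0 of 8 each), and 0 of 8 had an unadjusted p under 0.05 by edgeR. Among all 13013 genes tested, 0% were called by edgeR and by DESeq2 (0 genes), and 119 genes, or 0.914%, had an unadjusted edgeR p under 0.05. The log2 fold change of left against right teeth was 0.02 ± 0.08 (SE) for Dkk2, 0.03 ± 0.08 for Dkk3, 0.05 ± 0.09 for Sfrp1, -0.03 ± 0.09 for Sfrp2 and -0.08 ± 0.10 for Frzb. It was less precise for Sostdc1 (0.15 ± 0.25), Sfrp4 (0.25 ± 0.32) and Dkk4 (-0.37 ± 0.54). Both teeth in which Dkk4 was at 0 or 12.3 normalized counts were left teeth, and without E15 replicate 3 the side value of Dkk4 was -0.17. Side differences as large as these errors would not have been detectable.

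Markers of the dental epithelium moved with stage. Of 8 listed markers of dental epithelium 4 had a row, and all 4 (Cdh3, Trp63, Perp and Lama3) rose by the edgeR test both from E15 to E17 and from E15 to E18. Their summed normalized counts were 2933 to 4690 at E15, 6340 to 7523 at E17 and 7927 to 10703 at E18, with no overlap between stages. Of 10 listed markers of dental mesenchyme 9 had a row, and their summed normalized counts were 95781 to 178304, 173121 to 306377 and 230399 to 307909, so that the sums at E15 lay below those at E18 and overlapped with those at E17. Col1a1 made up most of these sums, with 49512 to 130360 at E15 and 189442 to 274498 at E18. The mean log2 level, in which each marker counts the same, was 12.29 to 12.41, 12.32 to 12.44 and 12.16 to 12.32 for the mesenchymal list and 9.46 to 10.11, 10.61 to 10.85 and 10.93 to 11.29 for the epithelial one. From E15 to E17 3 of these 9 rose and 4 fell, and from E15 to E18 2 rose and 3 fell. None of the epithelial and mesenchymal markers with a row was at 0 in any tooth.

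Relative to the mean log2 level of the epithelial markers of the same tooth, Sostdc1 lay at 0.74 ± 0.52, 1.28 ± 0.14 and 0.99 ± 0.45 at E15, E17 and E18 (SD, n = 5 each). Without replicate 3 it lay at 0.53 ± 0.21 at E15 and 1.17 ± 0.20 at E18 (SD, n = 4 each). Dkk3 lay at -0.87 ± 0.26, -0.94 ± 0.14 and -1.15 ± 0.28. Relative to the mesenchymal markers, Frzb lay at -0.62 ± 0.12, -1.45 ± 0.16 and -2.01 ± 0.33, and the stages did not overlap. Sfrp2 lay at 0.91 ± 0.15, 0.61 ± 0.17 and 0.18 ± 0.20, and Dkk2 at -1.28 ± 0.21, -1.55 ± 0.13 and -1.82 ± 0.23. Sfrp1 lay at 0.17 ± 0.16, 0.06 ± 0.10 and -0.10 ± 0.33, and without replicate 3 at 0.10 ± 0.09 at E15 and 0.04 ± 0.11 at E18 (SD, n = 4 each). The cells that expressed each member were not measured, and the part of tissue make-up in these values was not tested.

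**Figure D4:**
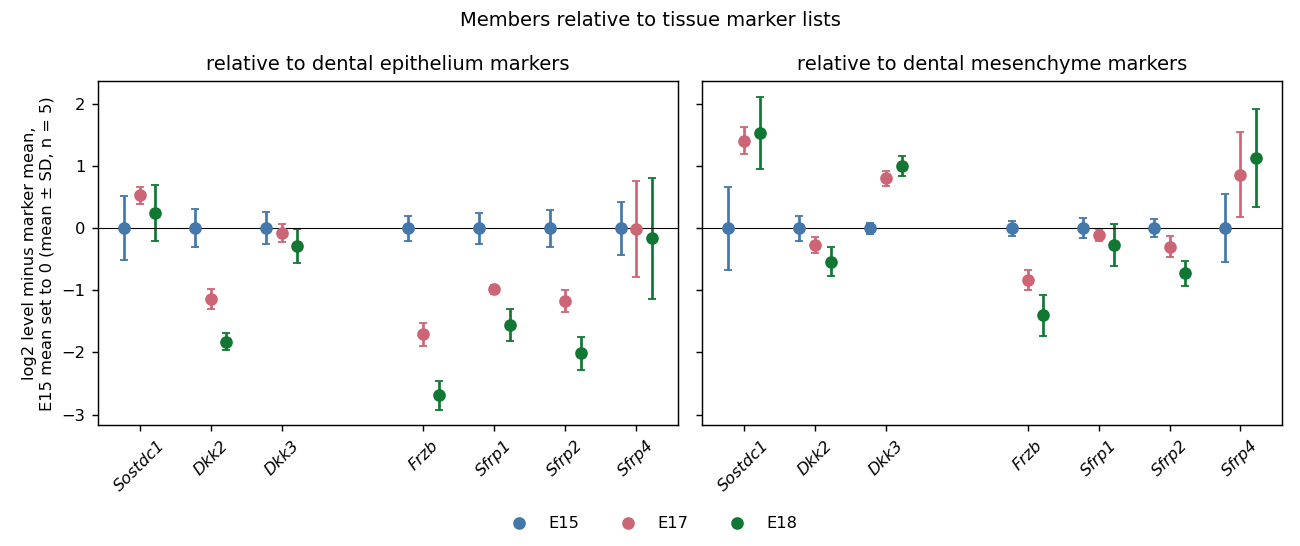
Log2 level of 7 antagonists minus the mean log2 level of the dental epithelium (left) or dental mesenchyme markers (right) of the same tooth, with the E15 mean set to 0 on the vertical axis; points are means and bars the SD of 5 teeth. Frzb stays below its E15 level in both panels. Dkk3 keeps close to 0 against the epithelial markers and lies above 0 at later stages against the mesenchymal ones. Dkk4 is not drawn because of its tooth at 0.

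The receptors and readouts of the pathway were measured in the same teeth. Lrp5, a co-receptor of Wnt ligands, had mean normalized counts of 2163 ± 65.6, 2154 ± 81.9 and 2340 ± 491 (SD, n = 5 each) and passed no test (edgeR adjusted p 0.975, 0.65 and 0.512). Lrp6, the other co-receptor, fell 1.27-fold from E15 to E18 (log2 fold change -0.34 ± 0.10 SE, edgeR adjusted p = 0.0396), a call that was lost without any of E15 replicates 1 to 4 or of E18 replicates 2, 4 and 5 (edgeR adjusted p between 0.0513 and 0.095). Lrp4, a receptor that also binds Sostdc1, rose 1.36-fold from E15 to E17 (0.45 ± 0.07, edgeR adjusted p = 0.000944), and its levels at these stages did not overlap. Ctnnb1, which encodes beta-catenin, had a log2 fold change of 0.19 ± 0.07 from E15 to E17 that missed the threshold (edgeR adjusted p = 0.0648), but it passed without E15 replicate 3 (0.13, edgeR adjusted p = 0.0448) and by DESeq2 (0.18, adjusted p = 0.0426). Axin2, a feedback inhibitor induced by Wnt signals, fell 1.35-fold from E15 to E17 (-0.43 ± 0.08, edgeR adjusted p = 0.00223) and was at 0.02 ± 0.10 from E17 to E18 (edgeR adjusted p = 0.91). Lef1, which encodes a nuclear partner of beta-catenin, rose 1.42-fold from E15 to E18 (0.50 ± 0.15, edgeR adjusted p = 0.0327), and this call was lost without E15 replicate 1, 2 or 4 or E18 replicate 2, 4 or 5 (edgeR adjusted p between 0.0541 and 0.0788). Tcf7l2, a Tcf factor, went the other way over this interval (-0.81 ± 0.24, edgeR adjusted p = 0.0329). Its mean normalized counts were 2140 ± 960 at E15 and 1212 ± 149 at E18 (SD, n = 5 each). Unlike those of Lrp6 and Lef1, the call of Tcf7l2 was not followed when replicates were left out.

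Among 61 other listed genes of the Wnt pathway 54 had a row. From E15 to E17 14 of 54 were called (25.9%), 10 higher and 4 lower, against 18.3% of all genes. Later, from E17 to E18, 4 of 53 were called (7.55%), 3 higher and 1 lower, against 2.54% of all genes, and the count ran from 2 without E17 replicate 1, 2, 3 or 5 or E18 replicate 5 to 7 without E18 replicate 3 and 8 without E18 replicate 1. The number of all genes called moved too, to 713 of 12811 without E18 replicate 3. From E15 to E18 22 of 54 were called (40.7%), 16 higher and 6 lower, against 21% of all genes. Of 16 Wnt ligands, 5 rose and 2 fell from E15 to E17, and 8 rose and 2 fell from E15 to E18. Wnt10a, expressed in the dental epithelium, rose by a log2 fold change of 1.33 ± 0.12 from E15 to E17 (edgeR adjusted p = 8.33e-06), whereas Wnt9b fell by 2.94 ± 0.40 (edgeR adjusted p = 0.000232) from a mean of 32.9 to 4.07 normalized counts. From E17 to E18 Wnt7a rose by 1.78 ± 0.20 (edgeR adjusted p = 0.00144) and Wnt2 fell by 1.70 ± 0.23 (edgeR adjusted p = 0.00397). Of 12 genes of signal transduction, Dvl1 alone passed a stage comparison, with a rise of 0.65 ± 0.17 from E15 to E18 (edgeR adjusted p = 0.0183). Nkd2 and Rnf43, inhibitors that act at the Dishevelled protein and at the receptors, rose from E15 to E17 by 0.62 ± 0.07 and 0.50 ± 0.15 (edgeR adjusted p = 8.76e-05 and 0.0311), and the call of Rnf43 was lost without E15 replicate 2 or 4 or E17 replicate 1, 4 or 5 (edgeR adjusted p between 0.0532 and 0.0773). Fzd6, a Frizzled receptor, rose by 0.54 ± 0.08 (edgeR adjusted p = 0.000293), and Tle1, a co-repressor of Tcf factors, fell by 0.60 ± 0.08 (edgeR adjusted p = 0.000163).

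Sfrp5, the remaining family member with a row, was not among the 10 genes chosen. Its normalized counts were 175, 145, 52.9, 153 and 170.0 at E15. At E17 they were 240, 270, 307, 287 and 275, and at E18 they were 291, 315, 278, 234 and 295. All later teeth lay above all E15 teeth, among which replicate 3 was the lowest. Sfrp5 rose 1.98-fold from E15 to E17 (log2 fold change 0.99 ± 0.23 SE, edgeR adjusted p = 0.00952) and by 1.02 ± 0.26 from E15 to E18 (edgeR adjusted p = 0.0164). From E15 to E17 the Sfrp genes thus included Sfrp5, which rose, Frzb and Sfrp2, whose counts were lower, and Sfrp1 and Sfrp4, which did not pass the edgeR test with all teeth.

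The genes with the profile closest to a member were sought among 349 genes with a symbol, by the mean absolute difference of centred log2 levels over the 15 teeth. For Sostdc1 they were Aqp4 (0.265), Perp (0.277) and Ptch1 (0.338), where the deviation of Sostdc1 from its own mean was 0.714. For Frzb they were Bmp2 (0.219), Lhx8 (0.267) and Tle1 (0.275), against 0.534. For Sfrp2 they were Pdgfra (0.119), Cdon (0.173) and Tle1 (0.175), against 0.324. Perp is in the epithelial marker list, and Lhx8 and Pdgfra are in the mesenchymal one. Bmp2, a ligand expressed in the enamel knot, had mean normalized counts of 425 ± 64.5, 309 ± 25.1 and 183 ± 37.9 (SD, n = 5 each).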

How the data were processed

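RNA sequencing libraries were made from single rat tooth germs with the Ovation Rat RNAseq System, which the labels name for all stages; the protocol text of the E18 labels differs from that of E15 and E17. Per the labels and the methods of the study, reads were trimmed with Trimmomatic, and the build named is Rnor_6.0. The table used here holds expected counts that the authors deposited as whole numbers from salmon under mouse Ensembl identifiers, and rounding them changed no value. The transcript set and use of strand are not given in the sources used here, so reads of near-identical or overlapping genes are uncertain. The authors also deposited HTSeq counts of the E15 and E17 teeth per rat gene; these were not used, because no table joined their identifiers to symbols. Columns without a sample numbered 0.

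Symbols came from the study's own gene tables, which pair 399 of them with a mouse identifier; 356 of these were in the count table. The authors' estimated counts were divided by DESeq2 1.42.0 size factors for normalized counts, and log2 levels used a pseudocount of 1. Changes were tested in edgeR 4.0.16 (R 4.3.3) by quasi-likelihood with TMM scaling and filterByExpr, over the libraries of the stages compared, with Benjamini-Hochberg adjustment over all genes and a threshold of 0.05. Left and right teeth were compared over 15 libraries with stage as a covariate. Standard errors were derived from the F statistic. The script was tested on simulated data. The members, gene lists and tests were chosen with earlier results of these data known. Named genes were all members with a row, Lrp4, Lrp5, Lrp6, Ctnnb1, Lef1 and Axin2, up to 2 called genes of the largest change per Wnt list and comparison, and the 3 genes closest in profile to Sostdc1, Frzb and Sfrp2; genes of the marker lists are named only as markers. Some genes of the dental epithelium list are not reported here and were left out of its counts and sums. Counts of same-stage libraries (30 pairs) differed by a chi-square of 6.33 to 160 per gene, and no library was taken for a copy of another. The labels do not say that all teeth came from separate litters, so p-values measure the spread between these teeth. Limits from a count of 0 cover counting error only. Alternatives changed the scaling, the test, the filter, the libraries in a fit, a side covariate and the replicates. Values relative to marker lists without replicate 3 were added after seeing the data. Listed markers that the study's gene tables do not pair with an identifier could not be looked up, so they may still be in the count table. This held for all 5 muscle markers. Of 5 cartilage markers 1 was paired with an identifier and had no row. Neither list was used.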

Additional observations from a re-analysis of the deposited data

Results flagged for a closer look

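Values were flagged where the highest or lowest of 5 teeth lay far from the rest of its stage relative to the whole range. For independent groups of normally distributed values, chance flags about 1 in 20, or 1.8 of the 36 groups examined, and 9 were flagged. The groups here are counts, totals and ratios that share counts, so this rate is only a rough guide.

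E15 replicate 3 gave 3 of these flags. Its Sostdc1 level was 3362 normalized counts, and the other E15 teeth held 1184 to 1456. Its ratio of Sostdc1 to Frzb counts was 0.925 against 0.363 to 0.399, and its ratio of Sostdc1 to Sfrp2 was 0.335 against 0.112 to 0.164. These flags share the Sostdc1 count of 1 tooth.

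Dkk4 was flagged in 2 stages. E18 replicate 3 was low with 12.3 normalized counts against 125 to 152, and E17 replicate 4 was high with 186 against 130 to 141. For Sfrp4, E17 replicate 1 was low with 44.8 normalized counts, and the other E17 teeth held 128 to 148.

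The library totals of 3 teeth were flagged as high, with 24109716 counts in E15 replicate 1, 16239849 in E17 replicate 3 and 27571541 in E18 replicate 1. The other totals were at most 12707658 at E15, 12762839 at E17 and 13527608 at E18.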

How the results depend on the processing

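Replicate numbers follow accession order. No paired analysis was possible because these numbers pair no teeth across stages. The HTSeq counts were not run as an alternative, since their rat identifiers could not be joined to symbols. The number of tested members called from E15 to E17 was 1, and became 3 with DESeq2, 2 with at least 10 counts in every library, 2 with both teeth of 1 embryo summed, and 1 to 2 leaving out single replicates. From E17 to E18 it was 0, and became 1 with DESeq2, 1 in one fit over 15 libraries, 1 without E18 replicates 1 and 3, and 0 to 1 leaving out single replicates. Over all genes, 1514 were called from E15 to E17 in one fit over 15 libraries, against 2315 in the main fit. From E17 to E18, 323 genes were called, against 636 with DESeq2, 212 with the teeth summed, 1072 without E18 replicates 1 and 3 and 141 to 713 leaving out single replicates. Without replicate 3 of E15 and E18, an alternative chosen after seeing the data, 4136 genes were called from E15 to E18, against 2656 in the main fit. Of the other Wnt pathway genes 4 were called from E17 to E18, against 7 with DESeq2, 11 without E18 replicates 1 and 3, and 2 to 8 leaving out single replicates. The cause of these shifts was not tested.

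Without E18 replicates 1 and 3, Sfrp4 from E17 to E18 turned to -0.0166 and Dkk4 from E15 to E18 to 0.226 on the log2 scale. Leaving out single replicates, Dkk4 from E15 to E18 ran from -0.378 to 0.220 and Sostdc1 from E17 to E18 from -0.00542 to 0.231. The side value of Frzb turned to 0.0590 with E15 and E17 alone, and that of Sostdc1 became 0.500, against 0.146 over all stages. Leaving out single replicates, side values ran from -0.0474 to 0.269 for Sostdc1, -0.0257 to 0.0580 for Dkk2 and -0.0719 to 0.0158 for Sfrp2. Lrp5, whose log2 values lay near 0, turned to -0.00132 with RLE scaling, -0.00180 with DESeq2, -0.000403 with no filter and -0.00932 with the teeth summed from E15 to E17, and to -0.00731 from E15 to E18 without replicate 3 of both stages. Leaving out single replicates, it ran from -0.0123 to 0.0201 from E15 to E17, -0.0283 to 0.171 from E17 to E18 and -0.0156 to 0.176 from E15 to E18, and Axin2 from E17 to E18 ran from -0.0306 to 0.0783. With side as a covariate, the calls of Lrp6 (edgeR adjusted p = 0.0558) and Lef1 (0.0505) were lost, as was that of Rnf43 with the teeth summed (0.0523), and Ctnnb1 passed from E15 to E17 with DESeq2 (adjusted p = 0.0426). Dkk2 passed from E15 to E17 with DESeq2 (adjusted p = 0.0297), and from E17 to E18 with DESeq2 (0.0103) and with one fit over 15 libraries (edgeR, 0.0452). Sfrp4 passed from E15 to E17 with DESeq2 (adjusted p = 0.0198), and Sfrp1 from E15 to E18 with one fit over 15 libraries (edgeR adjusted p = 0.037). The calls of Dkk3 from E15 to E17 and to E18, and of Dkk2 from E15 to E18, held under every alternative run.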

Other observations

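Marker lists of other cell types were followed beside the antagonists. Of 8 enamel knot markers all had a row, and their mean log2 level was 4.11 to 5.17 at E15, 6.59 to 6.89 at E17 and 7.02 to 7.22 at E18. They did not all move together. From E15 to E17 4 of the 7 tested rose, 2 did not pass and Bmp2 fell (-0.45 ± 0.11, edgeR adjusted p = 0.0115). From E15 to E18 5 of 8 rose, 2 did not pass and Bmp2 again fell (-1.20 ± 0.16, edgeR adjusted p = 0.00036). Shh, a signal of the enamel knot, rose by a log2 fold change of 4.57 ± 0.51 from E15 to E17 (edgeR adjusted p = 5.2e-05). It was at 0 in E15 replicate 5, where Dkk4 was at 114 normalized counts, and at 8.22 in E15 replicate 3, where Dkk4 was at 0. Of the bone and osteoclast markers 5 of 8 had a row and 4 rose from E15 to E17. Their mean log2 level was 5.02 to 6.69, 6.99 to 9.62 and 8.22 to 9.68 in the 3 stages. Of 6 endothelial markers 2 had a row (mean log2 level 9.61 to 10.01, 9.99 to 10.30 and 10.12 to 10.34). Of 5 markers of glia and nerve 3 had a row (mean log2 level 7.16 to 7.47, 6.85 to 7.98 and 7.03 to 8.002). Their summed normalized counts were 2316 to 2983, 1909 to 2425 and 620.3 to 2038, with medians of 2502, 2318 and 1822. The lowest was E18 replicate 3, where Ptprz1 was at 446 and in the other E18 teeth at 1602 to 1889. Ret went the other way, and was highest of the E18 teeth in this tooth (139).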
